A study of Homo sapiens with 24 samples.

Results

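OGT is the O-GlcNAc transferase, the enzyme that attaches O-linked N-acetylglucosamine (O-GlcNAc) to nuclear and cytoplasmic proteins. The sequencing counts of its gene were followed here bin by bin. All 26 bins that the count tables assign to OGT were taken, out of 164219 bins in the whole tables. They are 24 exon bins and 2 detained introns, and all 26 passed the minimum mean of 10 counts in each of the 4 drug comparisons. That mean was taken over the DMSO and treated libraries of a comparison together. A bin with few counts in the treated libraries could thus pass through its DMSO libraries. HEK293T, an established line of human embryonic kidney origin, was used throughout, in medium renewed 3 h before treatment. In the OSMI-2 experiment, cells received OSMI-2, an OGT inhibitor, at 10 µM for 2 h (3 libraries) or 6 h (2 libraries), beside DMSO for 2 h (3 libraries) or 6 h (3 libraries). In the TMG experiment, cells received TMG, an inhibitor of the O-GlcNAcase OGA (MGEA5), at 5 µM for 2 h or 6 h, beside DMSO for 2 h or 6 h, with 3 libraries in each of the 4 groups. Libraries were stranded and made from mRNA, and each drug comparison had its own DMSO group. RNA came from Trizol or a column kit, and the labels do not say which library got which.

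OGT carries tetratricopeptide repeats in its N-terminal part, which bind protein substrates, and a catalytic domain in its C-terminal part, while MGEA5 encodes the enzyme that takes the sugar off again. A detained intron is an intron that stays in a fraction of otherwise spliced, polyadenylated transcripts, which are kept in the nucleus and not translated. Retention of OGT introns is known as a step at which cells adjust OGT to the level of O-GlcNAc.

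OGT lies on X, plus strand, from 70752913 to 70795750 (hg19). The first detained intron, bin E005, spans 70764486 to 70766193 (1708 bases) and follows exon bin E004 (70764417 to 70764485, 69 bases). The second detained intron, bin E007, spans 70766347 to 70767756 (1410 bases) and precedes exon bin E008 (70767757 to 70767873, 117 bases). Bin E006 (70766194 to 70766346, 153 bases) lies between both introns and is classed as CAS in the tables, which do not spell out the term. E026 (70793470 to 70795750, 2281 bases) is the last exon bin. The lengths of E004 to E008 sum to 3457 bases, the length of exon 4 of OGT-210, a retained-intron transcript in GENCODE v29, and the sequences below were read from that exon by offset. E004 and E008 have the lengths of exons 4 and 5 of the coding transcript OGT-202, and no exon of the 11 annotated OGT transcripts starts or ends at the borders of E006.

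The 4 borders are shown because they define the introns that moved with treatment, with 10 exon bases in capitals and 20 intron bases in lower case, 5′ to 3′.
E004 to E005: AGAAGCCAAGgtaggtgtttgatagaacac
E005 to E006: accattgatattgtatttagAAGGTTTCAG
E006 to E007: ATGGTAACGGgtttgtaactgccacagcaa
E007 to E008: tttcattaacccctcctaagGCATGTTATT
Both introns begin with GT and end with AG. E004 and E008 each hold whole codons of OGT-202 (23 and 39 codons), and in that frame E006, which is 51 codons long, holds 5 stop codons, shown in capitals.
E006: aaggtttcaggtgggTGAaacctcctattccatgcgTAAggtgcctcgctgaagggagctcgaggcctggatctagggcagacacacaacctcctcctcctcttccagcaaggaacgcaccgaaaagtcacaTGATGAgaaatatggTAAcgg
The first of these stops is codon 6 of E006, and reading from E004 on into E005 meets a stop at codon 4 of the intron. These are features of the reference sequence and were not measured in the libraries.

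Each library had 39.5 M to 100.2 M counts in the tables (M, mega), of which 1614 to 15683 fell in OGT outside its detained introns. The OSMI-2 libraries were deeper than their DMSO libraries, with 63.1 M to 100.2 M against 43.2 M to 51.7 M at 2 h. The last exon bin E026 held 29.6% to 43.7% of the OGT counts outside detained introns in the OSMI-2 experiment and 17.8% to 21.9% in the TMG experiment. The 2 experiments thus differed in how counts were spread along OGT, and every test but that of the difference between drugs compares libraries within an experiment. The HEK293T markers PAX2, EYA1, LHX1, NEFM and VIM had counts in every library, the lowest of them being LHX1 at 0.058 to 0.695 CPM (counts scaled to the library's total in the table). Of 4 listed markers of other cells, COL1A1 alone had a value, at 6.28 to 20.4 CPM. PTPRC, ALB and CDH5 have no bins among those counted, so their absence was not measured. The median of COL1A1 (8.98 CPM) lay above those of PAX2 (2.25), EYA1 (1.76), NEFM (0.665) and LHX1 (0.310) and below that of VIM (656). No source says that libraries came from separate cultures, so p-values measure only the spread between these libraries.

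With OSMI-2, both OGT introns and the bin between them held a small fraction of their DMSO share at 2 h and at 6 h, and with TMG they held a larger share at 6 h. Bin values are given as percent of the counts of OGT outside its detained introns; for the introns this is a ratio and not a share, since their counts are not in the denominator. At 2 h, both introns together stood at 7.73% ± 1.48 (SD, n = 3) with DMSO against 1.22% ± 0.44 (SD, n = 3) with OSMI-2. At 6 h they stood at 12.9% ± 1.80 (SD, n = 3) with DMSO against 1.69% ± 0.59 (SD, n = 2) with OSMI-2. In the TMG experiment, 2 h gave 16.5% ± 1.28 (SD, n = 3) with DMSO against 20.4% ± 0.80 (SD, n = 3) with TMG. There, 6 h gave 8.80% ± 1.11 (SD, n = 3) with DMSO against 23.2% ± 0.27 (SD, n = 3) with TMG. In order of this value, OSMI-2 2 h and OSMI-2 6 h overlapped, and so did DMSO 2 h of the OSMI-2 experiment and DMSO 6 h of the TMG experiment. Every other pair of neighbours in the order of the 8 groups was separate, library by library. By exact two-sided permutation over libraries each drug comparison of this value had p = 0.1, the smallest the design allows, and 0.1 after Benjamini-Hochberg adjustment over the 4 comparisons.

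**Figure D1:**
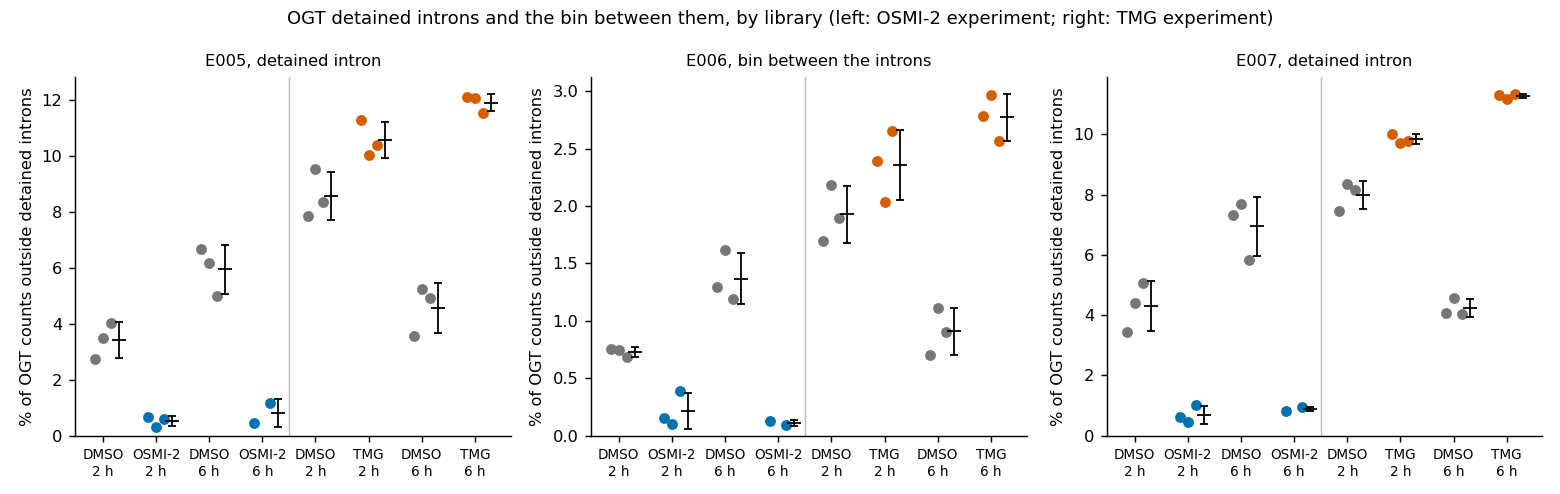
OGT bins E005, E006 and E007 by library, as percent of the OGT counts outside detained introns (points: libraries; black marks: mean ± SD; grey line: border between the OSMI-2 and TMG experiments). OSMI-2 libraries lie below their DMSO libraries in all 3 bins at both times, and TMG 6 h libraries lie above theirs, between 11.5% and 12.1% for E005.

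At 2 h of OSMI-2, the first intron E005 stood at 2.73%, 3.5% and 4.03% in the DMSO libraries (54, 84 and 65 counts) and at 0.66%, 0.30% and 0.61% in the OSMI-2 libraries (30, 24 and 17 counts). The second intron E007 stood at 3.44%, 4.41% and 5.08% with DMSO and at 0.61%, 0.46% and 1.03% with OSMI-2. In both introns every OSMI-2 library was below every DMSO library. Usage, the bin's counts relative to those of OGT, differed on the log2 scale by -2.83 (SE 0.27) for E005 and -2.77 (SE 0.26) for E007. These were the lowest and next-lowest of the 3111 detained introns tested, whose median was -0.06. Neither passed after Benjamini-Hochberg adjustment over all 120335 bins (edgeR quasi-likelihood test, adjusted p = 0.186 for both).

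The test called 0 of the 26 OGT bins and 0% of all bins at OSMI-2 2 h, with 6 OGT bins and 3479 bins in all at an unadjusted p below 0.05. DESeq2 called 2 OGT bins, E005 and E007, with adjusted p of 2.36e-16 and 3.12e-19, among 9 bins in all. The authors' deposited table also calls these 2 bins of OGT (adjusted p 7.48e-11 for both), among 0.0111% of its bins. The limma test of the log2 ratio called 0 OGT bins and 0 of all bins. Within edgeR, both introns also passed in a fit of all 23 libraries and when each exon bin was left out of its own offset. The latter setting leaves the offset of the introns as it was, since that offset holds no intron counts. It alters the offsets of exon bins and the number of bins tested (119580 against 120335). The call for the introns at 2 h thus depends on the tool and on the settings, while their values moved little: the log2 fold change was -2.79 by DESeq2 and -2.81 in the authors' deposited table for E005.

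E006, the bin between the introns, held 15, 18 and 11 counts in the DMSO libraries and 7, 8 and 11 counts in the deeper OSMI-2 libraries. This was 0.76%, 0.75% and 0.68% of the OGT counts with DMSO and 0.15%, 0.10% and 0.39% with OSMI-2, so that the groups did not overlap. The exact (Clopper-Pearson) 95% interval was 0.20% to 0.70% for the highest OSMI-2 library and 0.34% to 1.22% for the lowest DMSO library, and the 2 intervals overlap. Intervals cover counting error only. Over both groups together E006 had a mean of 11.7 counts, and it passed the minimum mean through its DMSO libraries. The log2 fold change of usage was -2.05 (SE 0.42) and did not pass (edgeR, adjusted p = 1.0).

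The exon bins beside the introns did not pass at 2 h, and the difference between them was not tested. E004, just upstream, held 0.56% to 0.81% with DMSO and 1.03% to 1.65% with OSMI-2, a log2 difference of 0.90 (SE 0.27), while E008, just downstream, differed by 0.04 (SE 0.18). E001 to E004 all had a higher share in every OSMI-2 library than in every DMSO library, by 0.33 to 0.90 on the log2 scale. None of them passed (edgeR, adjusted p = 1.0 for each), and the 18 bins E008 to E025 lay between -0.21 and 0.20. The share of all bins with every OSMI-2 library above every DMSO library was not counted. Relative to library size, 23 of the 26 bins had a positive log2 fold change, and E005, E006 and E007 had -2.21, -1.44 and -2.17. No OGT bin passed on this scale (edgeR, 0 called and 0% of all bins called). At an unadjusted p below 0.05 were 16 OGT bins and 1955 of all 120335 bins (edgeR). DESeq2 called 2 OGT bins and 12 bins in all. The OGT gene differed by 0.57 (SE 0.26) and did not pass (edgeR, adjusted p = 1.0; 0% of genes called); it stood at 39.8, 55.7 and 31.2 CPM with DMSO and at 61.8, 78.7 and 44.4 CPM with OSMI-2, which overlap.

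**Figure D2:**
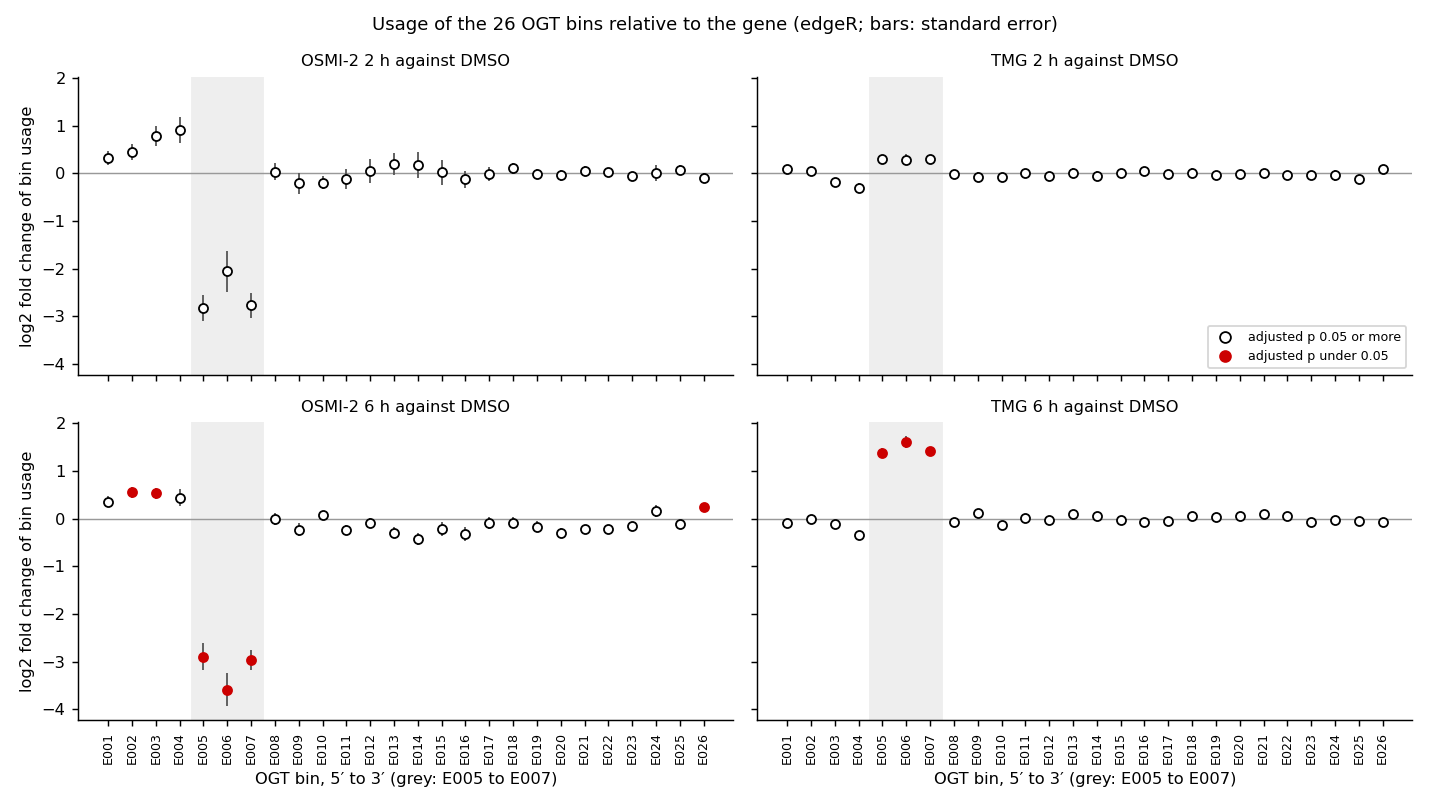
Log2 fold change of usage of the 26 OGT bins in each drug comparison, from 5′ to 3′ (edgeR; bars: standard error; red: adjusted p under 0.05; grey band: E005 to E007). The 3 bins of the band stand apart from the exon bins, down to -3.58 at OSMI-2 6 h and up to 1.61 at TMG 6 h.

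At 6 h of OSMI-2, E005, E006 and E007 fell and exon bins E002, E003 and E026 rose relative to the gene. E005 stood at 6.68%, 6.19% and 4.98% with DMSO and at 0.45% and 1.16% with OSMI-2. E007 stood at 7.33%, 7.68% and 5.85% with DMSO and at 0.83% and 0.94% with OSMI-2. E006 held 203, 115 and 107 counts with DMSO and 4 and 3 counts with OSMI-2, or 1.29%, 1.62% and 1.19% against 0.13% and 0.094%. The log2 fold changes were -2.89 (SE 0.28) for E005, -2.97 (SE 0.21) for E007 and -3.58 (SE 0.35) for E006, whose size rests on those few counts. E006 had a mean of 86.4 counts over both groups together, so it entered the test through its DMSO libraries. All 3 passed (edgeR, Benjamini-Hochberg adjusted p of 8.93e-04, 4.62e-04 and 8.85e-04), and they also passed when any single library was left out.

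In all, 6 of the 26 OGT bins passed at OSMI-2 6 h, where the same test called 4.93% of all bins. The authors' deposited table calls 8 OGT bins, these 6 with E001 and E004, among 6.46% of its bins. Among detained introns the background was far higher: 75.8% of 4616 were called lower, and their median was -1.64 on the log2 scale. Most introns were thus lower than at DMSO 6 h, and in size E007 ranked 127th and E005 161st from the lowest. All detained introns together held 0.286% to 0.328% of all counts at OSMI-2 6 h and 0.756% to 1.21% at DMSO 6 h. At DMSO 2 h of this experiment they held 0.239% to 0.276%. Bins of class CAS, like E006, were called in 2.32% of 3874 cases.

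E002, the next exon bin after the first exon, held 1.68%, 1.63% and 1.69% with DMSO and 2.24% and 2.67% with OSMI-2 at 6 h (log2 fold change 0.55, SE 0.12; edgeR, adjusted p = 0.0294). E003 held 2.00%, 1.99% and 1.79% with DMSO and 2.52% and 3.05% with OSMI-2 (log2 fold change 0.53, SE 0.12; edgeR, adjusted p = 0.0425). In each of these bins both OSMI-2 libraries lay above all DMSO libraries. The last exon E026 held 29.6% to 31.7% with DMSO and 38.0% and 34.2% with OSMI-2 (log2 fold change 0.24, SE 0.05; edgeR, adjusted p = 0.0341). Limma called none of these 3 exon bins, and 2350 of all 131312 bins. With any one of the 5 libraries left out E003 lost the threshold; E002 kept it without DMSO library c alone, and E026 without DMSO library c or OSMI-2 library b. E004, beside the first intron, differed by 0.44 (SE 0.18) and E008 by -0.01 (SE 0.13), and neither passed (edgeR, adjusted p = 0.302 and 0.993). Of the 18 bins E008 to E025, 10 had a lower share in both OSMI-2 libraries than in every DMSO library and none was called. The share of all bins separated in this way was not counted. The shares of exon bins sum to 100%, so a rise in some goes with a fall in others.

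Relative to library size, all 26 OGT bins fell at OSMI-2 6 h (edgeR; 9.11% of all bins called, 5.07% lower). When OSMI-2 library b was left out 5 bins passed, and the log2 fold changes of all 26 were negative. On the log2 scale the difference was -4.87 (SE 0.41) for E005, -5.44 (SE 0.52) for E006, -4.86 (SE 0.41) for E007 and between -2.32 and -1.34 for the other 23 bins. The OGT gene fell by 1.85 on the log2 scale (SE 0.34; edgeR, adjusted p = 3.62e-04; 4.85% of genes called). OGT stood at 376, 137 and 166 CPM in the DMSO libraries a, b and c and at 55.7 and 36.9 CPM with OSMI-2, so that DMSO library a stood apart within its group. Without that library the gene's log2 fold change was -1.41 (edgeR, adjusted p = 0.00504), and with OSMI-2 library a or b alone it did not pass (edgeR, adjusted p = 0.561 and 0.15), nor did any other gene.

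At 2 h of TMG, both introns were higher in every TMG library than in every DMSO library, by a small amount. E005 stood at 7.84%, 9.52% and 8.34% with DMSO and at 11.3%, 10.0% and 10.4% with TMG. E007 stood at 7.46%, 8.34% and 8.15% with DMSO and at 10.0%, 9.72% and 9.77% with TMG. The log2 fold changes of usage were 0.30 (SE 0.07) and 0.30 (SE 0.05), against a median of 0.30 over the 4031 detained introns tested. The OGT introns therefore moved by as much as a typical intron. E006 lay at 1.70% to 2.19% with DMSO and at 2.04% to 2.65% with TMG, and these ranges overlapped.

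None of the 26 OGT bins passed for usage at TMG 2 h, where 0.00218% of all bins did (edgeR, adjusted p = 0.434 for E005 and 0.216 for E007). At an unadjusted p below 0.05 were 6 OGT bins and 8586 of all 137435 bins (edgeR). DESeq2 calls 1 OGT bin, E007, among 57 bins in all, and limma calls 0 of all bins. The authors' deposited table also calls E007 alone of OGT, among 0.247% of its bins. Relative to library size E005 and E007 passed (log2 fold change 0.26 for each; edgeR, adjusted p = 0.0311 and 0.0264; 2.27% of all bins and 9.13% of detained introns, as higher, called). The call of E007 was lost with any one of the 6 libraries left out, and that of E005 with any but DMSO library b. E004 held 2.18% to 2.47% with DMSO and 1.64% to 2.00% with TMG, with no overlap, and E008 overlapped; neither passed. The OGT gene differed by -0.04 (SE 0.05; edgeR, adjusted p = 0.708; 7.91% of genes called), at 147 to 159 CPM with DMSO and 147 to 162 CPM with TMG.

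At 6 h of TMG, E005, E006 and E007 rose and no other OGT bin passed. E005 rose from 3.56%, 5.25% and 4.91% with DMSO to 12.1%, 12.1% and 11.5% with TMG. E007 rose from 4.07%, 4.58% and 4.05% to 11.3%, 11.2% and 11.3%. E006 rose from 0.70%, 1.11% and 0.91% (74, 122 and 98 counts) to 2.79%, 2.97% and 2.56% (214, 222 and 180 counts). The groups were far apart in each of the 3 bins, and the TMG libraries differed little among themselves. The log2 fold changes were 1.38 (SE 0.10), 1.61 (SE 0.13) and 1.41 (SE 0.05) for E005, E006 and E007 (edgeR, Benjamini-Hochberg adjusted p of 0.00252, 0.00395 and 4.44e-06).

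These 3 were among 9 bins called in all 133165 at TMG 6 h, or 0.00676%. Of 4181 detained introns, 0.0718% were called higher, and E007 and E005 had the lowest and next-lowest p of all introns and ranked 4th and 5th in log2 fold change, against a median of 0.15. Of bins of class CAS, E006 was the one called, or 0.0255% of 3917. Limma called 0 of the 26 bins (adjusted p = 0.0719 for E007 and 0.789 for E005 and E006) and 0 of all 133165 bins. E006 lost the threshold without TMG library b (edgeR, adjusted p = 0.0501). The authors' deposited table calls 7 OGT bins, the same 3 higher and E003, E004, E010 and E026 lower, among 0.0635% of its bins.

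Relative to library size, 20 exon bins of OGT fell at TMG 6 h, while both introns and E006 rose. Of the 26 bins, 23 passed (edgeR; 0.514% of all bins called, 0.149% higher and 0.364% lower). E005, E006 and E007 rose by 0.89, 1.12 and 0.93 on the log2 scale, and the 20 falls left E009, E013 and E014, which did not pass. The number that passed was 10 without TMG library a or c, 14 without DMSO library c and 15 without TMG library b. Of the exon bins, E004, just before the first intron, had the largest fall, at -0.82 (SE 0.11), and E008, just after the second, fell by 0.56 (SE 0.10). Relative to the gene E004 held 2.15% to 2.26% with DMSO and 1.68% to 1.86% with TMG, with a log2 fold change of -0.34 (SE 0.07) that did not pass (edgeR, adjusted p = 1.0). The OGT gene fell by 0.48 on the log2 scale (SE 0.07; edgeR, adjusted p = 0.00163; 6.03% of genes called), from 217 to 254 CPM in the DMSO libraries to 158 to 189 CPM with TMG.

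E006 lay on the same side of its DMSO group as the introns in all 4 comparisons, by its mean. Per 100 counts of both introns E006 had 7.48 to 12.3 counts at DMSO 2 h and 9.24 to 11.7 at DMSO 6 h of the OSMI-2 experiment, and 9.23 to 12.2 over the 6 DMSO libraries of the TMG experiment. TMG libraries had 10.3 to 13.2 and OSMI-2 libraries 4.48 to 23.9, from 3 to 11 counts each. The mean was 9.75 with DMSO and 16.4 with OSMI-2 at 2 h, and 10.6 and 7.24 at 6 h. Treated and DMSO libraries overlapped in all 4 comparisons (exact permutation p = 0.2 to 1.0, where 0.1 is the smallest possible), so no difference in this ratio could have passed. This ratio was chosen after the values were seen. A read that crosses a border can be counted in both bins: E024, which is 3 bases long, had a mean of 65.2 counts over the 6 libraries of the OSMI-2 2 h comparison. Counts of E006 and its neighbours are therefore not independent, and the part of shared reads in their common change was not tested.

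The ratio of the introns to each other is given in the same way. E005 had 0.79 counts per count of E007 in each of the 3 libraries of DMSO 2 h and 0.81 to 0.91 at DMSO 6 h in the OSMI-2 experiment, and 0.87 to 1.21 over all DMSO libraries of the TMG experiment. With TMG the ratio was 1.02 to 1.12 and with OSMI-2 0.54 to 1.23, where the counts were low. Treated and DMSO libraries overlapped in every drug comparison (exact permutation p = 0.8 to 1.0), and the wide range with OSMI-2 leaves differences in either direction possible.

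**Figure D3:**
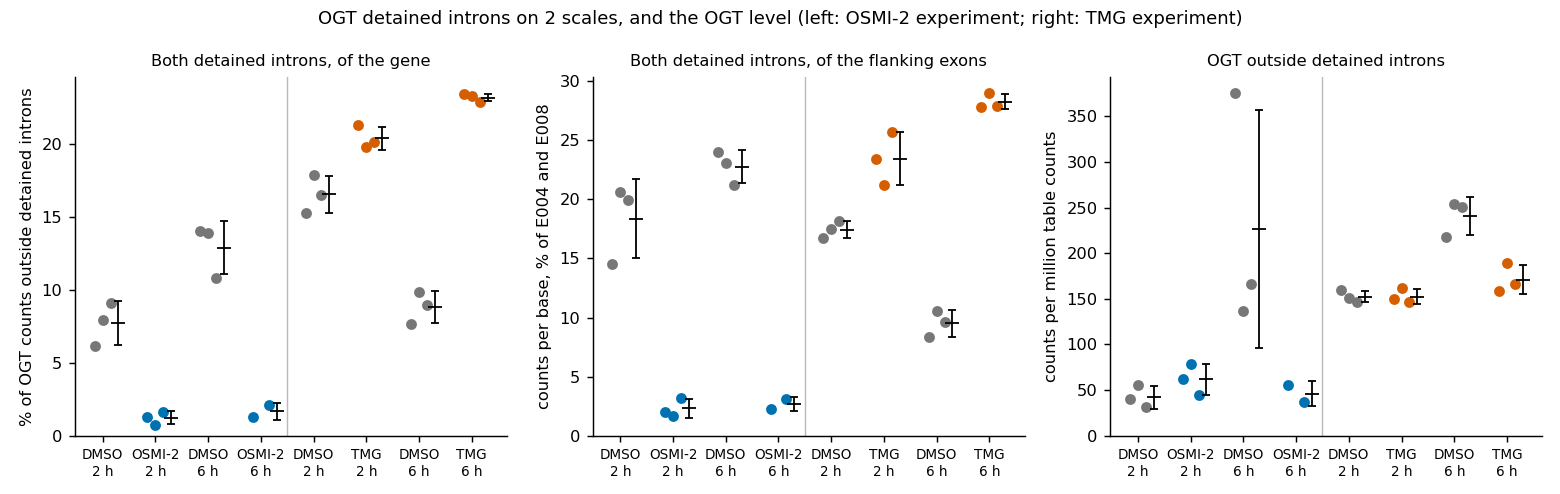
Both OGT detained introns by library as percent of the gene and as counts per base in percent of those of E004 and E008, and the OGT level outside detained introns (points: libraries; black marks: mean ± SD; grey line: border between experiments). The DMSO 2 h groups of the experiments differ on the first scale, 7.73% against 16.5%, and overlap on the second, 18.4% against 17.4%.

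Set against the flanking exons alone, the introns gave the same directions. By its mean share of the gene, E004 itself moved opposite to the introns in all 4 comparisons. At TMG 6 h, for example, it held 1.75% against 2.21% with DMSO. This scale is therefore not an independent check of direction. At 2 h, counts per base of both introns in percent of those of E004 and E008 were 18.4% ± 3.32 (SD, n = 3) with DMSO against 2.31% ± 0.81 (SD, n = 3) with OSMI-2. At 6 h they were 22.8% ± 1.43 (SD, n = 3) with DMSO against 2.66% ± 0.61 (SD, n = 2) with OSMI-2. In the TMG experiment, 2 h gave 17.4% ± 0.71 (SD, n = 3) with DMSO against 23.4% ± 2.26 (SD, n = 3) with TMG. There, 6 h gave 9.50% ± 1.12 (SD, n = 3) with DMSO against 28.2% ± 0.62 (SD, n = 3) with TMG. On this scale the DMSO 2 h groups of the experiments overlapped, at 14.6% to 20.6% and 16.7% to 18.1%. As percent of the gene they did not, at 6.17% to 9.11% and 15.3% to 17.9%. By group mean E006 stood higher per base than either intron: its mean was 68.9% of the flanking exons at TMG 6 h, where E005 had 26.5% and E007 30.4%, and 3.69% at OSMI-2 6 h, where they had 2.27% and 3.14%. In OSMI-2 6 h library b, E006 lay below both, at 2.83% against 3.12% and 3.07%. A short bin also gains more per base from reads that cross its borders, and the size of that gain was not tested. The flanking scale was added after the values were seen.

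The change of the introns differed between the drugs. At 2 h the change with OSMI-2 was below that with TMG by -3.15 on the log2 scale for E005 (SE 0.27) and by -3.09 for E007 (SE 0.23), and these were 2 of the 3 bins of all 135138 called, or 0.00222% (edgeR interaction term, adjusted p = 0.00120 and 3.32e-04). Both were also called with any single library left out, and limma called 0 OGT bins and 2 bins in all for this difference. At 6 h, 7 OGT bins differed (3.79% of all bins called; 62.8% of detained introns lower): E005, E006 and E007 with -4.27, -5.19 and -4.38, and E002, E003, E004 and E026 with 0.57, 0.63, 0.77 and 0.31. Without OSMI-2 library b, 4 of these 7 bins were called, E005, E006, E007 and E026. The drugs were given in separate experiments, so drug and experiment cannot be told apart in these differences.

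With OSMI-2 no OGT bin passed for a difference between 6 h and 2 h (edgeR interaction term, 0 of 26, with 1.65% of all bins called). At an unadjusted p below 0.05 were 2 OGT bins and 11970 of all 126699 bins (edgeR). Limma called 0 OGT bins and 996 bins in all. The edgeR differences were -0.04 (SE 0.54) for E005 and -0.18 (SE 0.41) for E007. E006 had the largest of the 26 in size, -1.51 (SE 0.70; edgeR, adjusted p = 0.540). Standard errors of this size leave differences in either direction possible for both introns. Over all introns the median difference was -1.55 and 31.8% were called lower, and E005 and E007 ranked 174th and 247th from the highest of 4274. With TMG the rise of E007 was larger at 6 h than at 2 h by 1.11 on the log2 scale (SE 0.07; edgeR, adjusted p = 1.96e-05), and that bin was 1 of 2 called in all 135759, or 0.00147%. E005 and E006 differed by 1.08 (SE 0.14) and 1.32 (SE 0.19) and did not pass (edgeR, adjusted p = 0.0785 and 0.171). Without DMSO 6 h library a, E005 was called beside E007, and without DMSO 6 h library b E005 and E006 were. The median over introns was -0.14.

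The DMSO groups themselves differed between 6 h and 2 h, and the introns moved in opposite directions in the 2 experiments. In the TMG experiment E005, E006 and E007 fell by 0.91, 1.09 and 0.92 on the log2 scale and E026 rose by 0.24, 4 of 26 bins against 2.34% of all bins (edgeR, adjusted p of 0.00756, 0.00902, 3.86e-04 and 0.00637). Detained introns in general went the other way: 9.10% were called higher, 0.417% lower, and the median was 0.41. E007 and E005 ranked 21st and 22nd from the lowest of 4077 introns. The 4 bins were also called when any single library was left out, and limma called 0 OGT bins and 12 bins in all.

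In the OSMI-2 experiment E004, E005, E006 and E007 rose from DMSO 2 h to DMSO 6 h by 0.70, 0.82, 0.88 and 0.70 on the log2 scale and E026 fell by 0.38 (edgeR, adjusted p of 0.0404, 0.0128, 0.0274, 0.0194 and 0.00432; 9.19% of all bins called). Here 81.6% of detained introns were called higher, with a median of 1.74, and E007 and E005 ranked 485th and 574th from the lowest of 4476. The number of bins called was 1 (E026) without DMSO 2 h library a, 2 without DMSO 6 h library a, and 3 without DMSO 2 h library c or DMSO 6 h library b. Limma called 2. Whether the DMSO change of OGT differs between the experiments was not tested. The OGT gene rose in both, by 1.81 (SE 0.29; edgeR, adjusted p = 1.23e-04; 18.6% of genes called) and by 0.60 (SE 0.07; edgeR, adjusted p = 4.75e-07; 45.9% of genes called), from 31.2 to 55.7 CPM at 2 h to 137 to 376 CPM at 6 h and from 147 to 159 CPM to 217 to 254 CPM. The share of all counts in detained introns also differed, at 0.239% to 0.276% at DMSO 2 h and 0.756% to 1.21% at DMSO 6 h of the OSMI-2 experiment. Each drug comparison is against the DMSO group of its own time. Taken directly, both introns stood at 19.8% to 21.3% at TMG 2 h and at 22.9% to 23.4% at TMG 6 h.

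**Figure D4:**
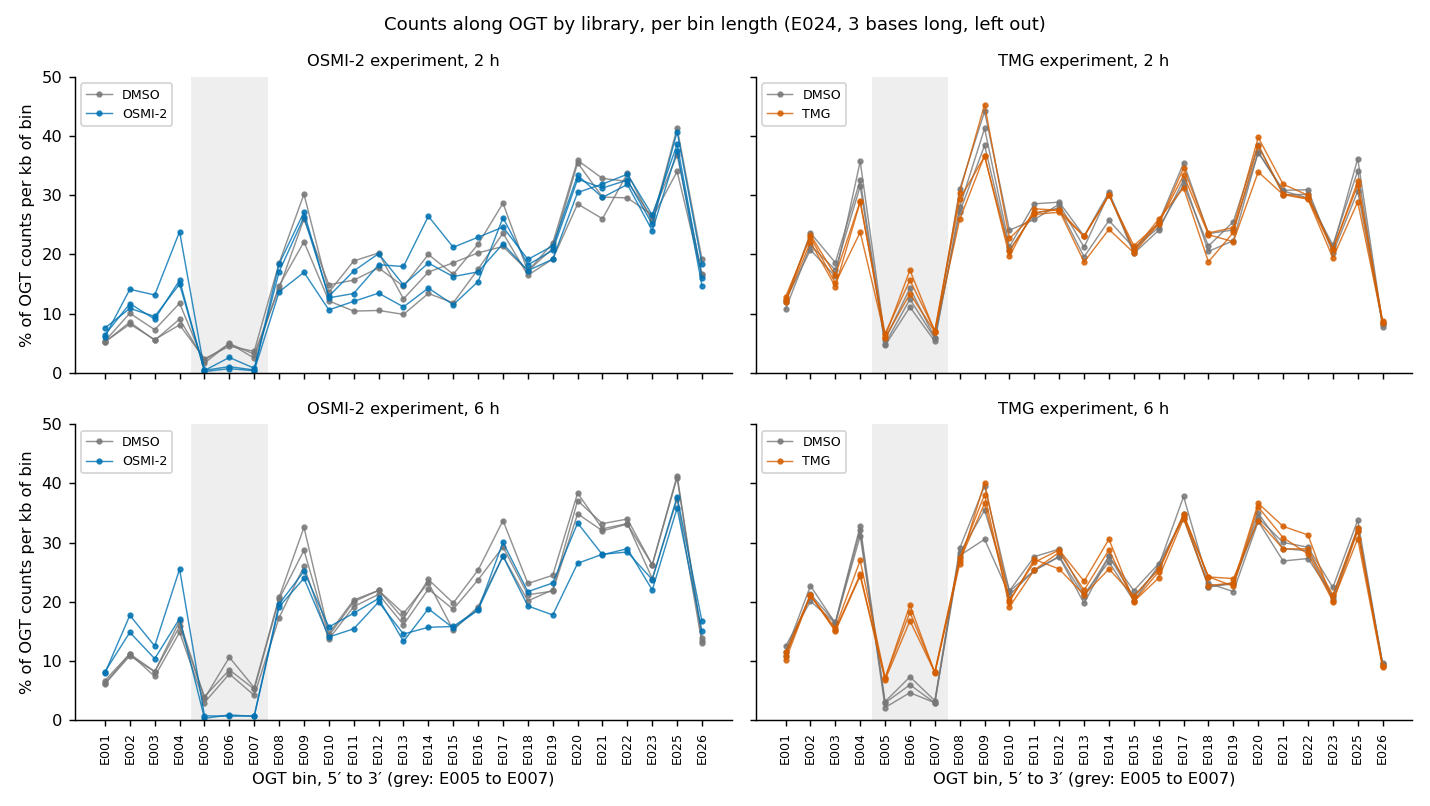
Counts along OGT in percent of the counts outside detained introns per kb of bin, by library (grey: DMSO; blue: OSMI-2; orange: TMG; grey band: E005 to E007). E024, which is 3 bases long, is left out. Exon bins tend to rise from 5′ to 3′ up to E025 in the OSMI-2 experiment, and at E005 to E007 the OSMI-2 libraries lie below DMSO and the TMG 6 h libraries above it.

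Exon bins at the 5′ end held smaller shares in the OSMI-2 experiment than in the TMG experiment. The first exon E001 held 1.44% of the counts at DMSO 2 h of the OSMI-2 experiment and 3.19% at DMSO 2 h of the TMG experiment, and E004 held 0.66% and 2.30%. From E008 to E025, bin means ran from 1.63% (E012) to 6.61% (E023) in the former and from 1.63% (E024) to 5.30% (E023) in the latter. Towards the 3′ end the order turned, as E023 held 6.61% ± 0.14 (SD, n = 3) in the former and 5.30% ± 0.17 (SD, n = 3) in the latter, with no overlap. Over all genes with a first and a last constitutive exon bin, the median ratio of first to last was also lower in the OSMI-2 experiment, at 0.0724 to 0.149 per library against 0.147 to 0.217. Experiment and this spread along genes cannot be told apart in any comparison between experiments.

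Upstream of the introns, exon bins E001 to E004 together held a larger share in every OSMI-2 library than in every DMSO library of its time. They held 4.58% to 5.56% of the OGT counts at DMSO 2 h and 6.80% to 8.65% with OSMI-2, and 6.33% to 6.46% at DMSO 6 h and 8.18% and 9.65% with OSMI-2. With TMG they held 12.2% to 12.9% against 12.6% to 13.6% with DMSO at 2 h, which overlapped, and 11.4% to 11.95% against 12.5% to 12.7% at 6 h, which did not. The exact permutation p was 0.1 for all but TMG 2 h (0.2), and after Benjamini-Hochberg adjustment over the 4 comparisons 0.133 and 0.2; 3 libraries against 3, or 2 against 3, cannot go below 0.1. The median ratio of first to last exon over the same 1803 genes moved with this share in part. At 6 h it was 0.122 and 0.149 with OSMI-2 against 0.103, 0.123 and 0.0987 with DMSO, and 0.147, 0.151 and 0.15 with TMG against 0.182, 0.154 and 0.154 with DMSO, where every TMG library lay below every DMSO library. At 2 h the treated and DMSO libraries of both experiments overlapped in it. Its part in the upstream share of OGT was not tested. Counts per base upstream over those downstream gave the same directions, from 0.335 to 0.520 with OSMI-2 at 2 h and from 0.932 to 0.866 with TMG at 6 h. The upstream share of DMSO libraries also differed between times of the OSMI-2 experiment, by 1.47 percentage points, against 2.57 and 2.51 with OSMI-2 at 2 h and 6 h.

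**Figure D5:**
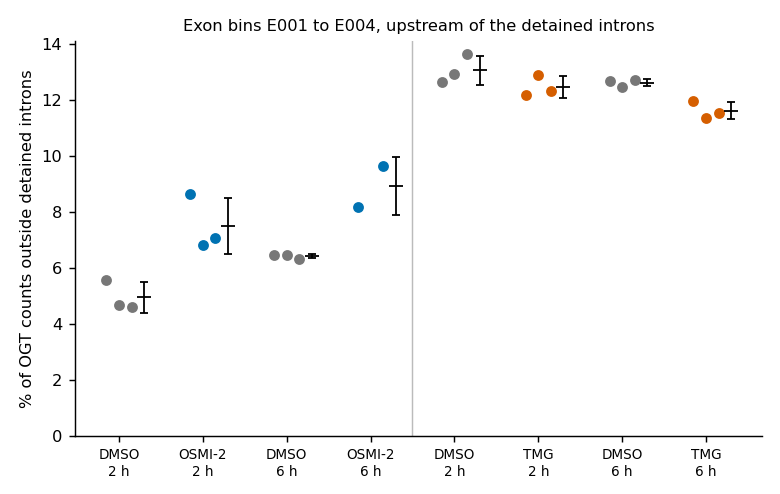
Share of the OGT counts outside detained introns in exon bins E001 to E004, by library (points: libraries; black marks: mean ± SD; grey line: border between experiments). Both OSMI-2 groups lie above their DMSO groups, TMG 6 h lies below its own, and the TMG experiment lies higher throughout, from 11.4% to 13.6%.

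Over all 23 libraries, the introns whose level relative to their gene was most like the mean of the 2 OGT introns were MGEA5_E008 (Pearson r = 0.93), FNBP4_E009 (0.91), TBRG4_E005 (0.90), TELO2_E017 (0.88) and TONSL_E025 (0.88), of 1421 introns averaging 50 counts or more, whose median r was 0.61. MGEA5 encodes OGA, the enzyme that opposes OGT, and its intron E008 spans 103553756 to 103555130 of chromosome 10 (hg19). The genes whose level was most like that of OGT were BTN2A2 (0.92), POLH (0.91), RAD52 (0.91), ANKRD10 (0.91) and PAIP2B (0.91), of 10599 genes with a median r of 0.03. The libraries fall into separate groups, and libraries of one experiment share their depth and spread along genes, so these values are a description.

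Of the 7 other genes of the pathway, MGEA5 changed in 2 drug comparisons, opposite to each other: it fell by 1.93 on the log2 scale at OSMI-2 6 h (SE 0.33; edgeR, adjusted p = 1.80e-04; 4.85% of genes called) and rose by 0.72 at TMG 6 h (SE 0.06; edgeR, adjusted p = 5.98e-06; 6.03% of genes called). OGT was lower in both against DMSO 6 h, and OGT rose from DMSO 2 h to DMSO 6 h in both experiments. Taken directly, OGT stood at 36.9 to 55.7 CPM at OSMI-2 6 h and at 31.2 to 55.7 CPM at DMSO 2 h of that experiment. In the TMG experiment it stood at 158 to 189 CPM at TMG 6 h and at 147 to 159 CPM at DMSO 2 h. With OSMI-2 library a or b left out no gene passed at OSMI-2 6 h, MGEA5 included. The enzymes that make UDP-GlcNAc, the sugar donor of OGT (GFPT1, GFPT2, GNPNAT1, PGM3 and UAP1), and the salvage kinase NAGK did not pass in any drug comparison by this test. From DMSO 2 h to DMSO 6 h, GNPNAT1 (-0.84, SE 0.28) and UAP1 (-0.95, SE 0.29) fell in the OSMI-2 experiment, and GFPT2 (-0.69, SE 0.09) and PGM3 (-0.31, SE 0.07) fell in the TMG experiment (edgeR, adjusted p of 0.0357, 0.0212, 1.01e-06 and 0.00152). These are 2 of 7 genes in each experiment, against 18.6% and 45.9% of all genes called, so they do not stand out from the background.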

How the data were processed

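The authors deposited 4 tables, 1 per drug and time, of whole-number counts per bin and library, with no normalization, with columns named as in DEXSeq output, per the file headers. Each table also holds the authors' own p-value, log2 fold change and adjusted p per bin, which served as an alternative. STAR and hg19 are named in the submitters' processing notes, with no version; the counter is not given in the sources used here. Columns were matched to groups by name. One library of OSMI-2 6 h was not analysed here, which leaves 2.

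Bin usage was tested with edgeR 4.0.16 (estimateDisp, glmQLFit, glmQLFTest; R 4.3.3), two-sided, with the log of the gene's counts outside detained introns (plus 1) as offset, for bins averaging 10 counts or more in genes that did too, and Benjamini-Hochberg adjustment over all bins at 0.05. Abundance and genes used library size scaled by TMM over genes and introns. Alternatives used limma 3.58.1 and DESeq2 1.42.0. Likeness used log2 ratios with a pseudocount of 1. Scripts were tested on simulated data. No 2 libraries of a group agreed within sampling noise (chi-square over degrees of freedom 4.27 to 297). The rule for named bins took E004 to E008, and in each comparison up to 5 further OGT bins per direction past the threshold whose treated libraries all lay beyond the DMSO libraries. The bins and gene lists were chosen with earlier results of these data known. One listed marker of HEK293T cells is not reported here.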

Additional observations from a re-analysis of the deposited data

Results flagged for a closer look

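The drug effect on 10 OGT bin values differed between experiments or times by an edgeR interaction term with Benjamini-Hochberg adjustment. At 2 h the log2 effect of OSMI-2 minus that of TMG was -3.15 for E005 (adjusted p = 0.00120) and -3.09 for E007 (adjusted p = 3.32e-04). At 6 h it was -4.27 for E005, -5.19 for E006 and -4.38 for E007 (edgeR, adjusted p of 4.89e-05, 6.50e-05 and 8.10e-07). At 6 h it was also 0.57 for E002, 0.63 for E003, 0.77 for E004 and 0.31 for E026 (edgeR, adjusted p of 0.0192, 0.00590, 0.0257 and 0.00738). With TMG the log2 effect at 6 h minus that at 2 h was 1.11 for E007 (edgeR, adjusted p = 1.96e-05).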

How the results depend on the processing

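The columns of DMSO and treated libraries share letters, which nothing ties to the replicate numbers of the samples. Over genes, the deviations of same-letter libraries had r = -0.45 to 0.73 at OSMI-2 2 h and -0.13 to 0.037 at OSMI-2 6 h. In the TMG experiment they had r = 0.047 to 0.16 at 2 h and 0.035 to 0.23 at 6 h. Whether same-letter libraries form pairs is not known. A block of the letter changed the number of genes called from 605 to 0 at OSMI-2 6 h and from 730 to 1363 at TMG 6 h (edgeR). With the letter as a replicate block, chosen after seeing the data, abundance called 2 OGT bins at OSMI-2 2 h, the OGT gene at OSMI-2 6 h was -1.86 (edgeR, adjusted p = 0.0903), and 0 pathway genes were called at OSMI-2 6 h and 2 at TMG 2 h; the usage counts were 0, 4, 0 and 3. The number of OGT bins called for usage at OSMI-2 2 h was 0. It became 2 with DESeq2, the fit of all 23 libraries, the offset without the bin itself and the authors' deposited test. For the introns that offset is the same as in the main fit, which holds no intron counts. The number stayed at 0 with a term for 2 sets of libraries that differ in the slope of gene counts on GC content. At OSMI-2 6 h it was 6, and 3 by limma (3 to 5 without 1 library). At TMG 2 h it was 0, and 1 by DESeq2 and the authors' test and 2 with the offset without the bin itself. At TMG 6 h it was 3, and 0 by limma, which called 0 of all bins, and 7 by the authors' test. For abundance, the number at OSMI-2 2 h became 2 with DESeq2, DESeq2 size factors, TMM over genes only and no filter, and was 0 to 2 without 1 library; it was 5 to 26 at OSMI-2 6 h (5 without OSMI-2 library b), 0 to 1 at TMG 2 h and 10 to 26 at TMG 6 h. The bins that differed between drugs were 0 by limma at 2 h and 4 to 8 without 1 library at 6 h; those that differed between times with TMG were 1 to 3. For DMSO 6 h against 2 h, limma called 2 bins in the OSMI-2 experiment (1 to 5 without 1 library) and 0 in the TMG experiment. The OGT gene changed by -2.20 to -1.41 at OSMI-2 6 h without 1 library, where a lone OSMI-2 library was assumed to vary like the DMSO group, and by -0.086 to 0.0064 at TMG 2 h (0.0074 over all bins). MGEA5 made the pathway count 1 in place of 0 at TMG 2 h by DESeq2, TMM over genes only and counts over all bins. E008, which never passed, changed sign at OSMI-2 2 h with the GC term (-0.070; -0.077 to 0.20 without 1 library), at OSMI-2 6 h by limma (0.0088), with the offset over all bins (0.14) and by the authors' test (0.14; -0.086 to 0.037 without 1 library), and at TMG 2 h (-0.063 to 0.052). The causes were not tested. The direction of E005 and E007 held in all 4 comparisons under every alternative run. Depth limits E006 with OSMI-2, where libraries held 3 to 11 counts.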
